A study of Drosophila melanogaster with 16 samples.

Results

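The genes described here are the chorion and vitelline membrane genes of Drosophila melanogaster, the 10 genes Cp15, Cp16, Cp18, Cp19, Cp36, Cp38, Vm26Aa, Vm26Ab, Vm32E and Vm34Ca, chosen by symbol. Of these, 6 had a row among the 12286 genes of the expression table: the chorion genes Cp15 and Cp18 and the vitelline membrane genes Vm26Aa, Vm26Ab, Vm32E and Vm34Ca. Cp16, Cp19, Cp36 and Cp38 were not analysed here. All 6 genes passed the filter on low values (at least 1 normalized count in at least 4 libraries), as did 12181 genes in all.

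The Drosophila eggshell is made by the somatic follicle cells that surround each developing egg chamber. They secrete the vitelline membrane proteins first and the chorion proteins last, so vitelline membrane and chorion genes are active at successive stages of oogenesis, and the major chorion gene clusters are amplified in these cells before they are transcribed. The egg chambers lie in the ovary, in the abdomen, and neither kind of gene has a known role in head tissue.

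RNA was sequenced from fly heads at 10 days of age, each sample being a pool of 6 flies, 3 males and 3 females. Human wild-type α-synuclein, the protein that aggregates in Parkinson's disease, was expressed in glia (SybQF2, RepoGAL4/UAS-Syn), in neurons (SybQF2, RepoGAL4, QUAS-Syn/+), in both (SybQF2, RepoGAL4, QUASSyn/UAS-Syn) or in neither (SybQF2, RepoGAL4/+, the control). Every group, control included, carried both drivers: RepoGAL4 is active in glia throughout the nervous system and SybQF2, from the synaptobrevin promoter, in neurons. The table held 13 libraries: glia 1, 2 and 4, neuron 1, 2 and 3, both 1 to 4, and control 1, 2 and 3. The number is the labelled replicate number, which is used as the batch below. The other 3 samples in the labels were not analysed here, so batch 3 had no glia library and batch 4 had neither a neuron nor a control library. All males and females of a sample were pooled, so no value can be split by sex.

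Reads in genes ran from 2808960 in control 3 to 4767799 in both 3, and 1 read was worth 0.744 to 1.33 normalized counts, the unit of the levels below. The head label was checked against 9 genes of neurons, glia and photoreceptors, all of them present in every library and all lowest in glia 2. The rhodopsin gene ninaE of the photoreceptors, for example, had 24122 normalized counts in glia 2, 47638 in glia 1 and 46491 in glia 4. It had 44828 to 49070 in the control libraries, 58801 to 84273 in neuron and 58113 to 78367 in both. Glia 2 was thus lowest on head markers, but the groups differed as well. All 9 genes had positive log2 differences in neuron against control and in both against control, none with an adjusted p under 0.05 by limma. In both against glia 5 of the 9 had one, all higher, as did 3.11% of all genes tested. The results below are given with and without glia 2 where it changes them. In these bulk samples fewer cells of a type and less RNA per cell cannot be told apart.

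Eggshell RNA was present in these head libraries at very different levels. Summed over the 6 genes, it came to 157, 1825 and 8.67 normalized counts in glia 1, 2 and 4, to 7.09, 35.5 and 7.69 in neuron 1, 2 and 3, to 5.11, 8.54, 8.18 and 1.93 in both 1, 2, 3 and 4, and to 65.7, 64.9 and 51.7 in control 1, 2 and 3. One library, glia 2, held 81.2% of the total. It stood 11.6 times above glia 1, 210 times above glia 4 of the same genotype and 27.8 times above the highest control. At the other end, the highest of the 4 libraries with α-synuclein in both cell types, both 2, lay 6.05-fold below the lowest control.

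All 6 genes were detected in 5 libraries, which were glia 1, glia 2 and the 3 controls. In the other 8, between 1 and 3 of the genes had a read. Each of the 6 genes was highest in glia 2, where 22.7% of all genes tested had their highest value.

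**Figure D1:**
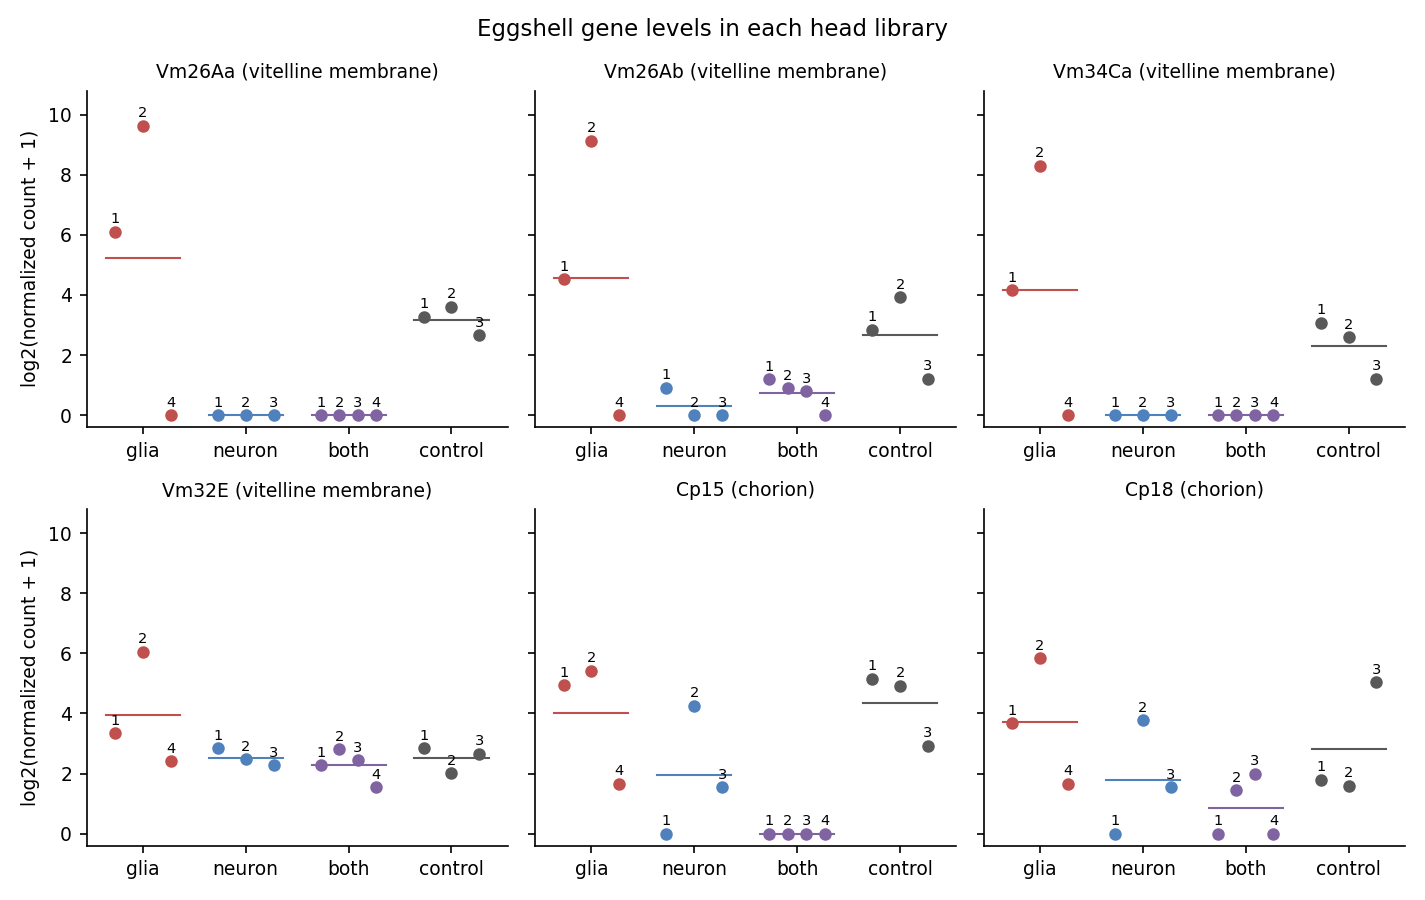
Normalized count of each of the 6 eggshell genes in each of the 13 libraries, on a log2(normalized count + 1) axis, grouped and coloured as glia, neuron, both and control. Digits give the batch and lines the mean of the log2 values. Points for glia 2 are the highest for every gene, the 3 control points lie above 0 for every gene, and Vm26Aa and Vm34Ca are at 0 in all neuron and both libraries and in glia 4.

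Of the vitelline membrane genes, Vm26Aa lies on 2L at 5959596 to 5960340 (BDGP6, minus strand, FBgn0003979). It encodes a structural protein of the vitelline membrane. Vm26Aa had 67.6, 789 and 0 normalized counts in glia 1, 2 and 4, 0 in every neuron and both library, and 8.68, 11.2 and 5.30 in control 1, 2 and 3. Glia 1 and glia 2 were above every control and glia 4 below every control, so the glia group spanned the control group, while neuron and both libraries lay below it without overlap. A count of 0 reads allowed a mean of up to 0.919 normalized counts in the neuron group and 0.720 in the both group (3 reads over the group, counting error only). Against the observed control mean, taken without error, Vm26Aa was thus at least 9.12-fold lower in the neuron libraries and at least 11.6-fold lower in the both libraries.

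Vm26Ab, at 2L 5957004 to 5957639 (plus strand, FBgn0003980), lies near Vm26Aa in a group of 4 vitelline membrane genes within 7948 bp that also holds Vm26Ac and psd. It encodes a major vitelline membrane protein. Vm26Ab had 22.1, 559 and 0 normalized counts in glia 1, 2 and 4, 0.887, 0 and 0 in neuron 1, 2 and 3, 1.28, 0.854, 0.744 and 0 in both 1, 2, 3 and 4, and 6.20, 14.2 and 1.33 in control 1, 2 and 3. The glia libraries again lay on either side of the controls. The both libraries lay below the controls by less than the worth of a read, since both 1 at 1.28 and control 3 at 1.33 each held 1 read. The same held for the neuron libraries, where neuron 1 at 0.887 also held 1 read.

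Vm34Ca, at 2L 13411141 to 13411631 (minus strand, FBgn0003983), is a vitelline membrane gene away from that group. Vm34Ca had 16.9, 314 and 0 normalized counts in glia 1, 2 and 4, 0 in every neuron and both library, and 7.44, 5.07 and 1.33 in control 1, 2 and 3. Its order of libraries was that of Vm26Aa at the top: glia 2, then glia 1, then the controls, with the rest at 0. Against the observed control mean, again taken without error, it was at least 5.02-fold lower in the neuron libraries and at least 6.40-fold lower in the both libraries. That control mean, 4.61 ± 3.08 normalized counts (SD), rested on 12 reads, so these folds are loose.

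Vm32E, at 2L 11171167 to 11171665 (minus strand, FBgn0014076), encodes an eggshell protein found in the vitelline membrane and in the inner chorion layer. It was the exception among the 4. Vm32E had 9.10, 65.3 and 4.34 normalized counts in glia 1, 2 and 4, 6.21, 4.55 and 3.84 in neuron 1, 2 and 3, 3.83, 5.98, 4.46 and 1.93 in both 1, 2, 3 and 4, and 6.20, 3.04 and 5.30 in control 1, 2 and 3. It was detected in all 13 libraries, and outside glia 1 and glia 2 its groups overlapped throughout. Of the 6 genes it is the only one that lies inside another gene in the annotation: it sits within Ca-beta, a calcium channel subunit gene on the same strand (2L 11156118 to 11203544), with 0 exon bases shared. Ca-beta itself had 372 to 788 normalized counts, lowest in glia 2, and whether reads from its introns add to the count of Vm32E was not tested.

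The chorion genes followed another order. Cp15 (3L 8728481 to 8729066, plus strand, FBgn0000355) and Cp18 (3L 8726791 to 8727613, plus strand, FBgn0000357) are neighbours, 867 bp apart, in a cluster of 4 chorion genes that spans 5809 bp on the third chromosome, and both encode structural proteins of the chorion made late in oogenesis. Cp15 had 29.9, 41.8 and 2.17 normalized counts in glia 1, 2 and 4, 0, 18.2 and 1.92 in neuron 1, 2 and 3, 0 in all both libraries, and 34.7, 29.4 and 6.63 in control 1, 2 and 3. Glia 2 was only 1.20 times above control 1, the next library, so for this gene the glia and control groups overlapped. With α-synuclein in both cell types Cp15 was below every control library and below every glia library. Against the observed means, taken without error, it was at least 32.7-fold lower than control and at least 34.2-fold lower than glia. Those means varied widely, 23.6 ± 14.9 in control and 24.6 ± 20.3 in glia (SD, n = 3 each).

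Cp18 had 11.7, 56.1 and 2.17 normalized counts in glia 1, 2 and 4, 0, 12.7 and 1.92 in neuron 1, 2 and 3, 0, 1.71, 2.98 and 0 in both 1, 2, 3 and 4, and 2.48, 2.03 and 31.8 in control 1, 2 and 3. No group lay wholly apart from control. The balance of the neighbours varied: Cp15 gave 71.9% of the Cp15 and Cp18 reads in glia 1 (exact Clopper-Pearson 95% interval 53.3 to 86.3%) and 42.7% in glia 2 (32.7 to 53.2%). The control libraries differed among themselves. Cp15 gave 93.3% of these reads in control 1 (28 of 30; 77.9 to 99.2%) and 93.5% in control 2 (29 of 31; 78.6 to 99.2%), but 17.2% in control 3 (5 of 29; 5.85 to 35.8%). The interval for control 3 did not meet those of control 1 and control 2, so the pair of neighbouring chorion genes differed in ratio between control pools by more than counting error.

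Levels can be compared between genes only per length, and the order per kb of exon was not the same in all libraries. In glia 2, Vm26Aa had 1059, Vm26Ab 878 and Vm34Ca 640 normalized counts per kb, against 131 for Vm32E, 86.4 for Cp18 and 81.2 for Cp15. In control 1, Cp15 led with 67.4 normalized counts per kb, ahead of Vm34Ca at 15.2, Vm32E at 12.4, Vm26Aa at 11.7, Vm26Ab at 9.75 and Cp18 at 3.82. In control 3, Cp18 led with 49.0 normalized counts per kb and Cp15 followed with 12.9. Vitelline membrane genes thus ranked first in glia 2, and a single chorion gene in each of these 2 controls, Cp15 in control 1 and Cp18 in control 3. In control 1 the other chorion gene, Cp18, ranked last.

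The balance of the 2 kinds was measured as the share of chorion reads (Cp15 and Cp18) among the reads of these and of Vm26Aa, Vm26Ab and Vm34Ca. It was 28.1% in glia 1 (exact 95% interval 20.1 to 37.3%, 114 reads) and 5.56% in glia 2 (4.53 to 6.75%, 1726 reads). Neuron 2 showed the opposite balance to glia 2: all 34 of its reads were chorion reads (89.7 to 100%) and none came from Vm26Aa, Vm26Ab or Vm34Ca. The share was 62.5% in control 1 (47.4 to 76.05%, 48 reads), 50.8% in control 2 (37.7 to 63.9%, 61 reads) and 82.9% in control 3 (66.4 to 93.4%, 35 reads). The chorion reads were mostly Cp15 in control 1 and control 2 (28 of 30 and 29 of 31) and mostly Cp18 in control 3 (24 of 29). The intervals of glia 1 and glia 2 did not meet those of the controls, nor each other. Each of the other 7 libraries had at most 5 such reads, too few to place the share.

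**Figure D2:**
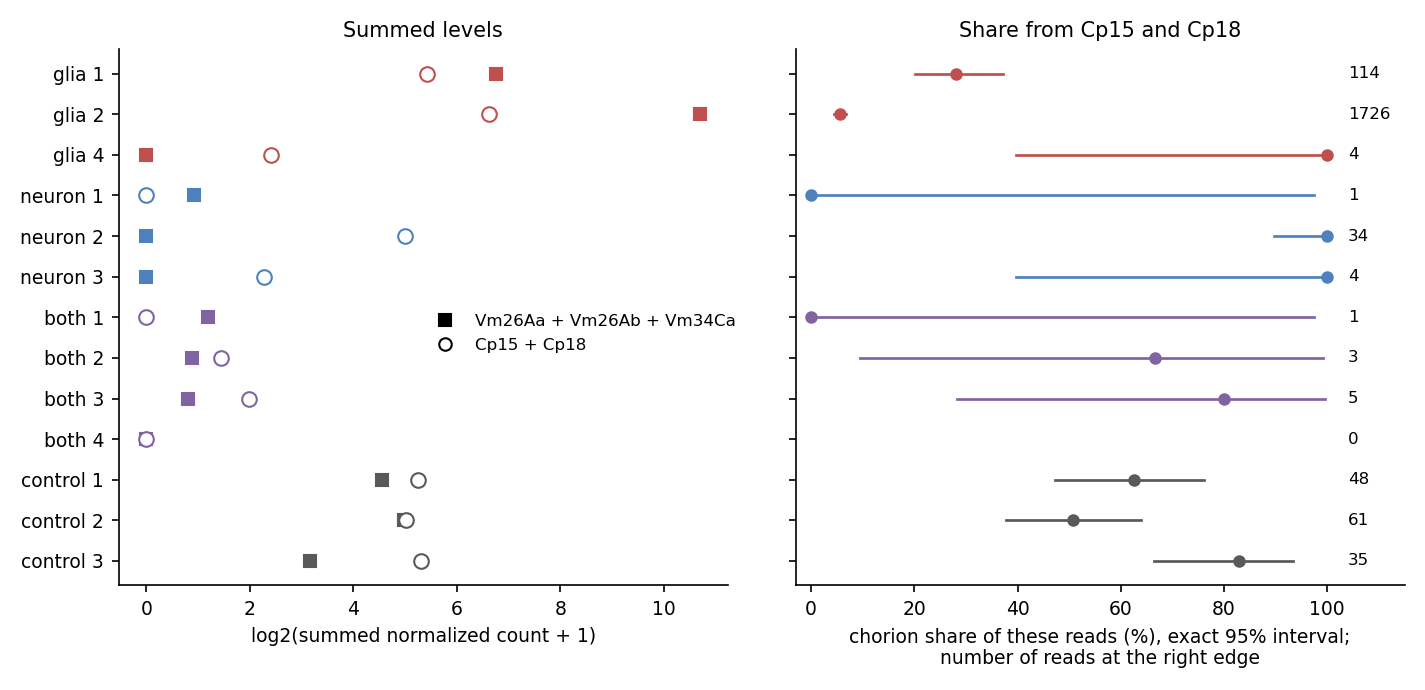
Left, summed normalized counts of Vm26Aa, Vm26Ab and Vm34Ca (squares) and of Cp15 and Cp18 (circles) in each library, as log2(sum + 1), coloured by group. Right, the chorion share of those reads in percent with its exact 95% interval and the number of reads: 5.56% in glia 2, 28.1% in glia 1, 50.8 to 82.9% in the controls and 100% in neuron 2, with wide intervals where reads are few.

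Across the 13 libraries the 3 vitelline membrane genes Vm26Aa, Vm26Ab and Vm34Ca varied most alike. On the log2(normalized count + 1) scale, Pearson's r was 0.966 between Vm26Aa and Vm26Ab, 0.987 between Vm26Aa and Vm34Ca and 0.979 between Vm26Ab and Vm34Ca, and 0.922, 0.979 and 0.937 for the same pairs without glia 2. Cp15 and Cp18 gave 0.689, and 0.612 without glia 2. Cp15 was closer to Vm26Aa (0.771, and 0.783 without glia 2) and to Vm34Ca (0.752 and 0.808) than to Cp18, so the chorion genes did not form a set of their own. Vm32E gave 0.818 to 0.856 with the other vitelline membrane genes and 0.433 to 0.475 without glia 2. These coefficients are descriptions: all genes of a library share its flies, its depth and its scaling, and much of the range comes from libraries at 0.

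The first comparison is α-synuclein in glia against control. None of the 6 genes passed an adjusted p of 0.05 by limma (background: 0.772% of the genes tested were called), none had an unadjusted p under 0.05 (background 10.1%), and limma's voom on whole reads called none (background 0.739%). The log2 differences, glia minus control, were 2.06 ± 1.63 for Vm26Aa, 1.89 ± 1.61 for Vm26Ab, 1.86 ± 1.44 for Vm34Ca, 1.43 ± 0.73 for Vm32E, 0.91 ± 1.23 for Cp18 and -0.33 ± 1.09 for Cp15 (SE), with adjusted p of 0.553 to 0.945 by limma. For the 5 positive genes the means alone would look large, since Vm26Aa averaged 286 ± 437 normalized counts in glia and 8.38 ± 2.94 in control (SD, n = 3 each), but the SD exceeded the glia mean. For none of the 6 genes did the glia libraries lie wholly above the control libraries (background 6.81%) or wholly below them (5.11%).

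For 4 of the 5 positive genes that direction rested on 1 library. Without glia 2 the log2 difference was -0.13 for Vm26Aa, -0.40 for Vm26Ab, -0.22 for Vm34Ca and -0.15 for Cp18, while Vm32E stayed positive at 0.37. The median over the 6 genes was then -0.18, against 1.64 with it and -0.03 over all genes tested. Without glia 4, in contrast, Vm26Aa was 4.69 higher on the log2 scale and passed the test (adjusted p = 0.0136 by limma, higher in the 2 remaining glia libraries than in any control; 1.13% of all genes tested were called). Its adjusted p ranged from 0.0136 to 0.994 over 26 alternatives. Within batches, the median log2 difference between the glia and the control library was 1.38 in batch 1, with 5 of the 6 genes higher, and 4.72 in batch 2, with 6 of 6 higher. Glia 4, the glia library with almost no eggshell RNA, came from batch 4, which has no control library, so batch and library cannot be told apart there.

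The second comparison is α-synuclein in neurons against control. None of the 6 genes passed the test (0 called by limma, with 0% of all genes tested called; 0 by voom, background 0%), and only Cp15 had an unadjusted p under 0.05 (background 12.3%; log2 difference -2.40 ± 1.09, adjusted p = 0.401 by limma). Vm26Aa, Vm26Ab and Vm34Ca were lower in every neuron library than in every control library, 3 of 6 genes where 11.1% of all genes tested were. For Vm26Ab, neuron 1 at 0.887 and control 3 at 1.33 each held 1 read. For Vm34Ca, control 3 held only 1 read. Vm26Aa and Vm34Ca reached 1 normalized count only in glia 1, glia 2 and the controls, and Vm26Ab only in these and in both 1. The 3 genes thus passed the filter on low values only through the controls, where they were higher. Their separation therefore cannot be weighed against the 11.1%. The 3 genes also varied alike (r 0.922 to 0.979 without glia 2), so they are not 3 separate results. The log2 differences of Vm26Aa, Vm26Ab and Vm34Ca, neuron minus control, were -3.18 ± 1.63, -2.36 ± 1.61 and -2.30 ± 1.44 (SE), and that of Vm32E was 0.03 ± 0.73. The median over the 6 genes was -2.33, against -0.06 over all genes tested. In batches 1, 2 and 3 the within-batch medians were -2.50, -1.63 and -1.30.

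The next comparison is α-synuclein in both cell types against control. No gene passed the test against control (0 of 6 called by limma, background 1.01%; 0 by voom, background 0%), although all 6 differences were negative. The nearest was Cp15, with a log2 difference of -4.34 ± 1.02 (both minus control, SE) and an adjusted p of 0.0646 by limma, lower in 4 of 4 both libraries than in any control. It was also the only gene of the 6 with an unadjusted p under 0.05 (background 19.5%). Its adjusted p ranged from 0.0122 to 0.419 over 26 alternatives and was under 0.05 in 6 of them. It was 0.0288 without glia 2, which is in neither group (background 7.06%), and 0.0122 in a fit of the 2 groups alone (background 6.69%), where Vm26Aa was called as well. Cp15, Vm26Aa, Vm26Ab and Vm34Ca were lower in every both library than in every control library, 4 of 6 genes where 11.3% of all genes tested were. For Vm26Ab and Vm34Ca that separation rested on 1 read in control 3. Vm26Aa, Vm26Ab and Vm34Ca also passed the filter on low values only through the controls. For them the separation therefore cannot be weighed against the 11.3%. The median over the 6 genes was -2.13, against -0.05 over all genes tested, and -2.44, -2.82 and -1.94 within batches 1, 2 and 3.

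The comparison of both cell types with glia alone gave the only call among the 6 genes. Cp15 fell by 4.01 ± 1.02 on the log2 scale (SE; 95% interval -6.23 to -1.79; adjusted p = 0.0355 by limma), with 0 normalized counts in all 4 both libraries and 2.17 to 41.8 in glia. The background was 7.86% of the genes tested called, and 4.75% called lower. Cp15 was also the only gene of the 6 without overlap between these groups, as were 12.3% of all genes tested, in that direction. The call did not survive several changes: its adjusted p was 0.134 without glia 2, 0.0759 without glia 1, 0.05001 without neuron 3, 0.0590 to 0.0807 without any 1 of the both libraries and 0.0923 by voom (0 of 6 called, background 6.69%), while the replicate block left it at 0.0415 (background 6.07%). Over 26 alternatives it ranged from 0.00735 to 0.181.

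The other 5 genes had unadjusted p under 0.05 in that comparison (all 6 did, with 27.9% of all genes tested) but not an adjusted one. Their log2 differences, both minus glia, were -5.24 ± 1.53 for Vm26Aa (adjusted p = 0.0548 by limma), -4.15 ± 1.34 for Vm34Ca, -3.83 ± 1.51 for Vm26Ab, -2.86 ± 1.15 for Cp18 and -1.67 ± 0.68 for Vm32E (SE). With the replicate block Vm26Aa was called too, at -5.38 and an adjusted p of 0.0455. Without glia 4 all 6 genes were called lower, where 15.4% of all genes tested were called in either direction. Without glia 2 none was called, and the differences were -3.05 for Vm26Aa, -2.08 for Vm34Ca, -1.55 for Vm26Ab, -1.81 for Cp18 and -0.61 for Vm32E. The median over the 6 genes was -3.92, against -0.07 over all genes tested. Within batches it was -3.91 in batch 1, -6.83 in batch 2 and -0.43 in batch 4.

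Set side by side, glia minus neuron gave no call (0 of 6, background 3.24%; 0 by voom, background 2.51%), with 3 genes at an unadjusted p under 0.05 (background 21.5%). The largest difference was that of Vm26Aa, 5.24 ± 1.63 (SE, adjusted p = 0.0995 by limma), and the median was 3.11. Without glia 4, 3 genes were called, where 9.79% of all genes tested were. Without glia 2 none was, the difference of Vm26Aa was 3.05 and the median 1.67. Both minus neuron gave no call (0 of 6, with 0% of all genes called, 0 at an unadjusted p under 0.05, background 4.24%, and 0 by voom, background 0%), and the median was -0.13. The 95% intervals of these differences were wide, for example -4.16 to 0.28 for Cp15, so similar levels in these groups were not shown.

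The interaction asks whether the effect of α-synuclein in both cell types differed from the sum of its effects in glia and in neurons. It was not called for any of the 6 genes (background 0.0821% called; 0 at an unadjusted p under 0.05, background 7.3%; 0 by voom, background 0%). The log2 values ran from -2.06 ± 2.23 for Vm26Aa to -1.47 ± 2.21 for Vm26Ab (SE), all negative, with a median of -1.76. Without glia 2 it was positive for Vm26Aa (0.13), Vm26Ab (0.81) and Vm34Ca (0.22). The comparisons share libraries, so their values for the same gene are not independent.

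**Figure D3:**
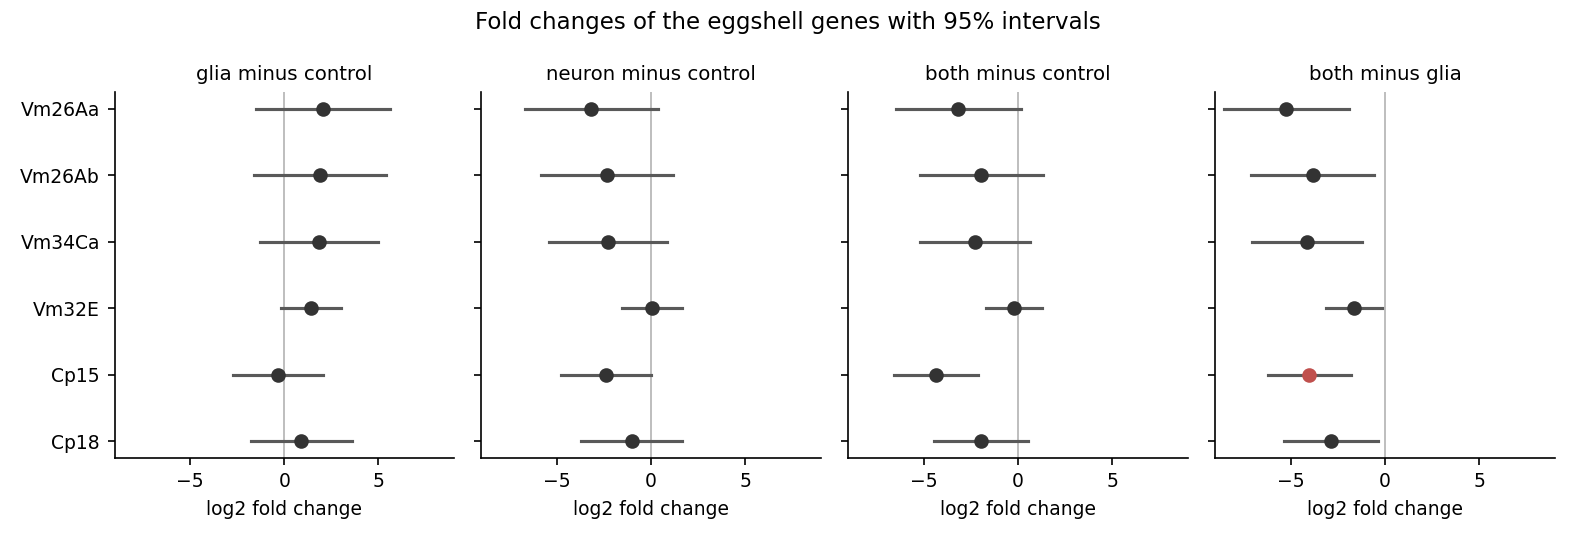
Log2 difference of each of the 6 genes in 4 comparisons, 1 panel each, with 95% intervals from limma and a grey line at 0. The red point is the only one with an adjusted p under 0.05, Cp15 in both against glia at -4.01. The intervals for glia against control all cross 0.

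Other eggshell genes were read beside these, not split by the cell type that makes them. Of 16 listed, 10 had a row, 9 passed the filter, and all 10 were highest in glia 2. Their library median was 18.2, 304 and 3.79 normalized counts in glia 1, 2 and 4, 0.443 to 1.44 in neuron, 1.86 to 2.55 in both and 23.6, 9.63 and 3.31 in control 1, 2 and 3. In glia against control 9 of 9 differences were positive and none was called, with a median of 1.46. Against glia alone, the both libraries had 1 of 9 genes called, which was lower, where 4.75% of all genes tested were called lower.

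That gene was dec, defective chorion, whose products help to assemble the chorion. It had 61.1, 871 and 7.59 normalized counts in glia 1, 2 and 4, 0 in every neuron library, 1.28, 1.71, 0 and 0.965 in both 1, 2, 3 and 4, and 47.1, 21.3 and 14.6 in control 1, 2 and 3. Its log2 difference, both minus glia, was -5.38 ± 1.11 (SE, adjusted p = 0.0137 by limma). The closca gene clos and fs(1)M3, both needed for an intact vitelline membrane, were expressed in every library but were also highest in glia 2, clos at 416 normalized counts, against 41.7 to 107 elsewhere, and fs(1)M3 at 408, against 7.59 to 71.5 elsewhere. In the Vm26Ab group of genes, psd had 58.1 normalized counts in glia 2 and at most 5.20 in any other library, and Vm26Ac had 10.2 in glia 2, 1.33 in control 3 and 0 elsewhere (both named after their values were seen).

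Germline RNAs, which follicle cells do not make but which fill the oocyte and its nurse cells, mostly varied with the eggshell genes. Of 15 listed, 14 had a row, and 13 of those were highest in glia 2. Their summed level was 579 to 6921 normalized counts in glia, 461 to 548 in neuron, 382 to 443 in both and 534 to 1350 in control. In the low libraries most of this sum came from orb and grk. They had 314 and 113 normalized counts in neuron 1 and 256 and 80.3 in both 3. The library median over the 14 genes was 4.88 to 258 in glia, 1.44 to 13.6 in neuron, 3.19 to 7.26 in both and 5.96 to 47.1 in control. The posterior determinant osk had 174, 1598 and 6.50 normalized counts in glia 1, 2 and 4, 0, 20.9 and 1.92 in neuron 1, 2 and 3, 7.66, 8.54, 1.49 and 6.76 in both 1, 2, 3 and 4, and 191, 53.7 and 10.6 in control 1, 2 and 3. In glia against control, 13 of 14 differences were positive and none was called. In both against control 14 of 14 were negative and 1 was called lower, where 0.985% of all genes tested were. It was grk, a ligand of the EGF receptor that patterns the egg, at -0.98 (adjusted p = 0.0229 by limma). In both against glia grk was also the only one called, at -0.84 (adjusted p = 0.00758 by limma), where 4.75% were called lower. But grk was the gene of the 14 that was not highest in glia 2. It had 173, 127 and 147 normalized counts in glia 1, 2 and 4, 110 to 125 in neuron, 76.6 to 94.8 in both and 138 to 209 in control.

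The yolk receptor gene yl, expressed in the oocyte and named here after its values were seen, had 333, 2210 and 11.9 normalized counts in glia 1, 2 and 4, 0, 38.2 and 0 in neuron 1, 2 and 3, 0, 7.69, 1.49 and 9.65 in both 1, 2, 3 and 4, and 238, 102 and 35.8 in control 1, 2 and 3. The yolk protein gene Yp1, made in the female fat body as well as in follicle cells, was highest in both 1 at 123942 normalized counts and lowest in glia 4 at 15878. Of 5 genes of follicle cell patterning, 2 were highest in glia 2, tj (257 normalized counts, against 68.3 to 128 elsewhere) and Cad99C (185, against 75.9 to 137 elsewhere). None of these yolk and patterning genes passed the test in any comparison.

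**Figure D4:**
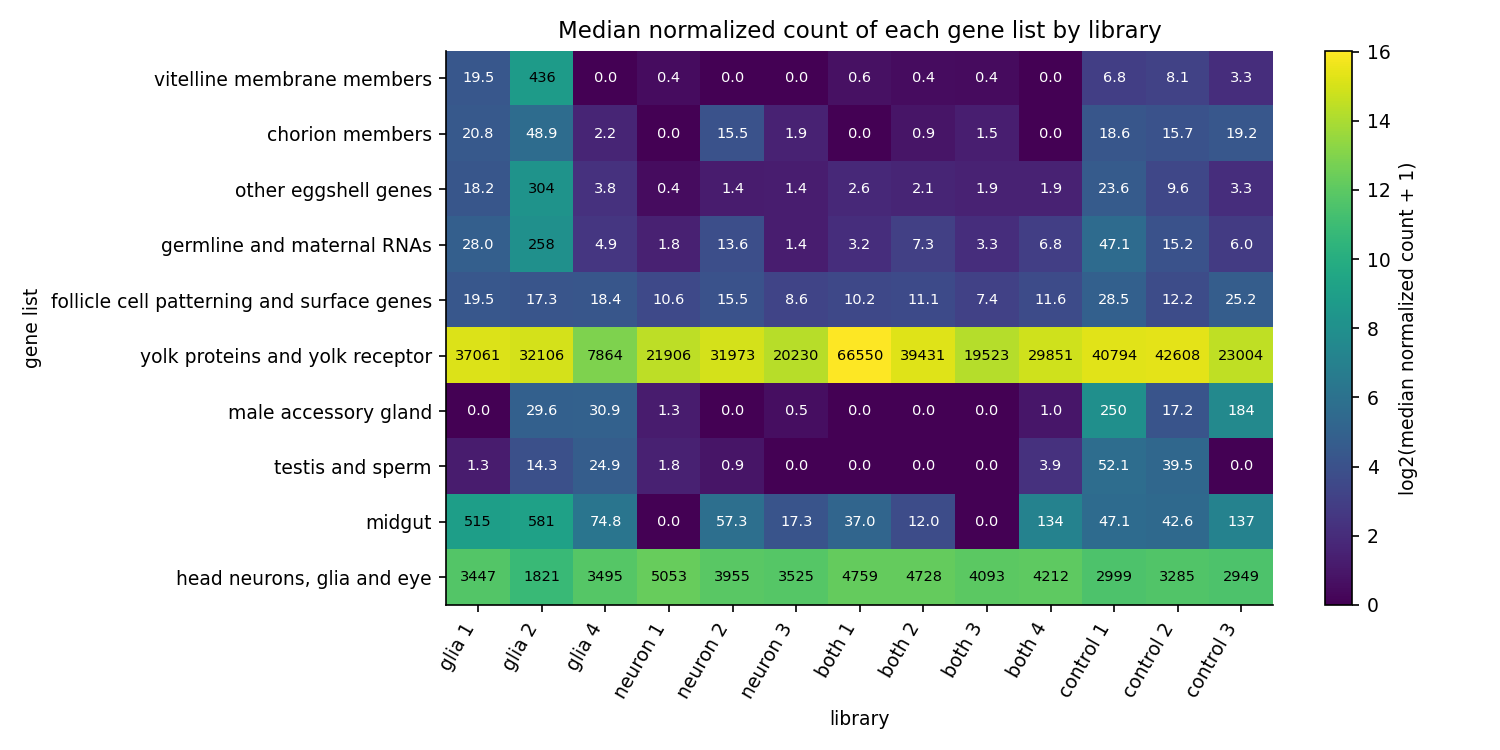
Heat map of the median normalized count of each gene list (rows) in each library (columns). Numbers are the medians and colour is log2(median + 1). The vitelline membrane, chorion, other eggshell and germline lists are highest in glia 2, the male accessory gland list is highest in control 1 and the head list is lowest in glia 2.

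Markers of other organs outside the head also differed between libraries. Of 15 male accessory gland genes 14 had a row, and their summed level was 27.3 to 909 normalized counts in glia, 29.1 to 70.1 in neuron, 29.0 to 43.6 in both and 481 to 7016 in control. In both against control 13 of the 14 were called lower, where 0.985% of all genes tested were. Acp36DE, with the highest mean, was above 0 in every library. It had 16.9, 301 and 192 normalized counts in glia 1, 2 and 4. Its levels were 16.3 to 37.2 in neuron, 18.3 to 25.6 in both and 169 to 1746 in control. Mst57Db, with the second highest mean, was at 0 in glia 1, neuron 2, both 1, both 2 and both 3. Testis genes, 11 of 11 listed, summed to 14.3 to 318 normalized counts in glia, 11.5 to 25.7 in neuron, 2.55 to 46.3 in both and 7.95 to 604 in control. Midgut genes, 7 of 7 listed, summed to 6295 to 15371 normalized counts in glia, 166 to 2388 in neuron, 43.9 to 4702 in both and 2107 to 5817 in control. In glia against control 2 of them were called higher, where 0.747% of all genes tested were. They were the brush border myosin gene Myo61F and the trypsin-like protease gene thetaTry.

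Cyp4g1, the marker of oenocytes, which lie under the abdominal cuticle, had 4067, 23062 and 7578 normalized counts in glia 1, 2 and 4, 524, 2652 and 318 in neuron 1, 2 and 3, 118, 37.6, 14.9 and 413 in both 1, 2, 3 and 4, and 16569, 3818 and 4388 in control 1, 2 and 3. Like the eggshell genes it was highest in glia 2 and low in the both libraries, but unlike them it was high in glia 4. The part of these organs in the eggshell levels was not tested.

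The genes whose pattern was most like the mean of the 6 across the 13 libraries were CG11674 (Pearson's r = 0.975), lok (0.960), fs(1)M3 (0.958), gnu (0.958), alphaTub67C (0.954), clos (0.951), yem (0.950), CycB (0.949), otu (0.949) and CG5384 (0.948), out of 10552 genes compared. All 10 were highest in glia 2, and r was 0.862 to 0.950 without it. None of the 10 was called in glia against control. In both against glia 1 was, CG5384 at -0.64 (adjusted p = 0.0491 by limma), where 7.86% of all genes tested were called.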

How the data were processed

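Per the labels' protocols, ribosomal RNA was removed and stranded paired-end libraries were made from pooled heads. Tools listed in the submitters' processing notes, in no stated order, are STAR, featureCounts, Salmon, DESeq2, FastQC and MultiQC, with BDGP6 as the genome. Whether counting used strand is not given in the sources used here. The authors deposited a signal per gene and library: normalized read counts plus 1, so 1 was subtracted. Divided by the smallest step of its column, 100% of values were whole within 0.01, which gave the reads per gene.

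Differences are those of limma 3.58.1 (R 4.3.3) with a trend, on log2(normalized count + 1), in 1 fit of 13 libraries and 4 groups, with Benjamini-Hochberg adjustment over 12181 genes at 0.05. The pseudocount understates changes of low genes. The fit was tested on simulated data with a small, fixed spread between libraries. That test does not cover genes with as wide a spread between pools as the eggshell genes. Intervals and floors cover counting error only. Labels do not say whether pools came from separate crosses, so p-values measure the spread between pools, which may be technical. Batch is the labelled replicate number, so numbers pair samples by label. Deviations of same-numbered libraries correlated weakly (16 pairs, median r 0.0697). Count models planned for raw counts were not run, since deposited values carry the added 1. Alternatives are in the closing section. Genes, lists and tests were chosen with earlier results of these data known. The rule for naming genes from each list took up to 3 with the highest mean and those called in glia against control. Genes of the likeness rule were named as well. Not all genes that this rule picks are given above, and a few called or neighbouring genes were added. 5 symbols stored as dates were named by gene ID.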

Additional observations from a re-analysis of the deposited data

How the results depend on the processing

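Each of 13 libraries was left out in turn, and each of 4 batches. Over the libraries, the genes called numbered 0 to 1 in glia against control, 0 to 2 in both against control, 0 to 3 in glia against neuron and 0 to 6 in both against glia, and 0 in neuron against control, both against neuron and the interaction. The highest count came without glia 4 in each of the first 4, where the background was 1.13%, 1.27%, 9.79% and 15.4%, in that order. In both against glia the count was 0 without glia 1, glia 2, neuron 3 or any both library. The median log2 difference ran from -0.18 to 3.06 in glia against control, from -2.96 to -1.87 in neuron against control, from -2.75 to -2.00 in both against control, from 1.67 to 4.74 in glia against neuron, from -5.65 to -1.94 in both against glia and from -0.22 to 0 in both against neuron. In glia against control the single genes ran from -1.03 to 0.85 for Cp15, from -0.15 to 2.02 for Cp18, from -0.13 to 4.69 for Vm26Aa, from -0.40 to 4.17 for Vm26Ab, from 0.37 to 2.19 for Vm32E and from -0.22 to 3.93 for Vm34Ca. Cp15 turned positive without glia 4 (0.85) or control 1 (0.08), and Cp18, Vm26Aa, Vm26Ab and Vm34Ca turned negative without glia 2.

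Without batch 2, which holds glia 2, the glia against control median was 0.0094, with Cp18 at -0.75 and Vm34Ca at -0.066, and the both against glia median was -2.04 with 0 genes called. Without batch 4, which holds glia 4, glia against control had 1 gene called (background 1.18%), Vm26Aa at 4.69, with Cp15 at 0.85. There glia against neuron had 3 called (background 7.35%) and a median of 4.74, and both against glia had 4 called (background 12.5%) and a median of -5.53. Both against glia had 0 called without batch 1 or batch 3, with a pseudocount of 5 and by voom, and 2 with the replicate block, Cp15 and Vm26Aa. The block changed no other count. With a pseudocount of 0.1 the median was -4.09 in neuron against control and -4.39 in both against control, where 1 gene was called. The share of all genes called was not counted for that setting, so this count cannot be weighed. With only the groups compared in the fit, both against control had 2 called (background 6.69%). The cause of these changes was not tested. No filter, TMM scaling, RPM scaling and the offset kept moved no count beyond 1.5 times, and no summed level by more than 1 SD.

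Voom and the RPM scaling were chosen after seeing the data. The planned edgeR and DESeq2 fits were not run. With 3 or 4 pools a group and many values of 0 or 1 read, small differences were not detectable at this depth.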
